A study of Mus musculus with 11 samples.

Results

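A chain of non-coding RNA features on the plus strand of mouse chromosome 14 is described here. It runs from near the start of the gene ccdc198 into the body of Slc35f4. Members were all unique features of the deposited table that overlap the stretch from 49.2 to 49.4 Mb (mm10), on either strand. There were 49 of them among 36097 unique features, all 49 on the plus strand and 0 on the minus strand. The table lists features the authors class as non-coding, and ccdc198 and Slc35f4 take up much of the minus strand here. The strand count is therefore not a measure of transcription on the minus strand. The window had been picked with the knockout against wild-type values of these libraries in view, so differences inside it are given as descriptions and support no inference.

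The groups were 6 retina libraries from Nrl knockout mice (Nrl-KO) and 5 from wild-type mice, all at postnatal day 21. The labels name no allele, strain, sex or animal for either group. All 11 libraries were made from RNA depleted of polyadenylated molecules and sequenced as stranded 50-bp reads, and the study's question was which non-coding transcripts differ when Nrl is missing. Where nothing says that libraries came from separate animals, p-values measure only the spread between libraries, which may be technical.

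Rods form under the control of Nrl, a bZIP transcription factor, and photoreceptors lacking it are known to take on cone features. Removing polyadenylated RNA leaves molecules that lack a tail, among them nascent, unspliced and unstable transcripts from intergenic and antisense DNA. Many promoters are transcribed in both directions, and the strand opposite to the gene can carry such RNA away from the gene. Slc35f4 belongs to the SLC35 family of membrane carriers, which includes the transporters of nucleotide sugars into the Golgi and endoplasmic reticulum. The name ccdc198 denotes a coiled-coil domain protein, and RefSeq gives 1700011H14Rik as its synonym.

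The run occupied 49247512 to 49401196, a span of 153685 bp of which the features covered 47.9%. Its first feature began 2038 bp from the start of ccdc198 (49219588 to 49245474, minus strand, GENCODE M21), and the run pointed away from that gene. It then crossed into Slc35f4 (49298519 to 49526046, minus strand) from that gene's 3′ end and stopped 125 kb short of its start. Of the members, 19 lay in the intergenic stretch before Slc35f4 and 30 overlapped Slc35f4 on the opposite strand. Among those 30, 4 touched an exon of Slc35f4 and 26 lay in introns only. Gaps between neighbours ranged from 250 to 18036 bp with a median of 800 bp, and 28 of the 48 gaps were under 1000 bp. Lengths ran from 107 to 13343 bp with a median of 377 bp, against 235 bp over all features. Whether the 49 pieces belong to 1 transcript was not tested.

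GENCODE M21 lists a lincRNA, Gm48935 (49217779 to 49220047), and Gm48936 (49220898 to 49223364) on the plus strand of the window, and both end before the first member begins. Other genes of this strand overlap members, and sequence was at hand for the places named next. Gm48940, an antisense gene of GENCODE (49299836 to 49304512, plus strand), overlapped the member MSTRG.28035. Gm52146, a RefSeq lncRNA gene (49386125 to 49388936, plus strand), overlapped MSTRG.28063 and MSTRG.28064. The first sequence shows 300 bases of the Gm48940 exon inside MSTRG.28035 (chr14:49304117-49304416, mm10, plus strand, from the GENCODE M21 transcripts), and its capitals mark the 193 bases that lie opposite a coding exon of Slc35f4. The second shows the 204 bases before the annotated starts of ccdc198 (chr14:49245475-49245678, minus strand), the gene start nearest to the beginning of the run. The third shows the Gm52146 promoter (chr14:49385875-49386174, plus strand), from 250 bases before to 50 after that gene's start. Both promoter sequences are from RefSeq on GRCm38.p6, and every sequence reads 5′ to 3′.
Gm48940 exon: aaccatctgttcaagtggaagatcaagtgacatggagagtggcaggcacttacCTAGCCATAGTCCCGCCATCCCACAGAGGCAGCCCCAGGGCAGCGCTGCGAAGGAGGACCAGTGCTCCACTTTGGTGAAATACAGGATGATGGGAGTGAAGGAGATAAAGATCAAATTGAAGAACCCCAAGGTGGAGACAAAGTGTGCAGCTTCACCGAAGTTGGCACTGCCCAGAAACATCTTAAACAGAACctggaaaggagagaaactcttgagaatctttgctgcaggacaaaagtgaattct
ccdc198 upstream: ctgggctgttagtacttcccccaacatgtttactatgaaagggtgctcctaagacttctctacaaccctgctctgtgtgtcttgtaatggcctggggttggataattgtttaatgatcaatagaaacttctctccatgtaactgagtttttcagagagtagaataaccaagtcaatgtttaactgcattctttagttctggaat
Gm52146 promoter: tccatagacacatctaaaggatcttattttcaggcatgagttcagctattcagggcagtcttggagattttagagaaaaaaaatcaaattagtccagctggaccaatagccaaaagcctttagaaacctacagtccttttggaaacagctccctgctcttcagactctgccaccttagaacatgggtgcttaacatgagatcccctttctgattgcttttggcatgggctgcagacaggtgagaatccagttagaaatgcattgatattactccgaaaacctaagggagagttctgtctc

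The sequences of ccdc198 and Gm52146 carry no capitals because none of the 3 motifs searched on both strands was found in either promoter window of 300 bases. The motifs were TAATCC (the core read by CRX and OTX2), TGCTGA (part of the element read by NRL) and AAGGTCA (the core read by estrogen-related receptors). Of 32851 promoter windows of the same length, 7.06% hold TAATCC, 19.5% hold TGCTGA and 4.72% hold AAGGTCA. The promoter windows of Slc35f4 and of Naa30, a protein-coding gene before ccdc198 on the plus strand, held 0 matches as well. These counts describe the letters of the windows and nothing more.

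**Figure D1:**
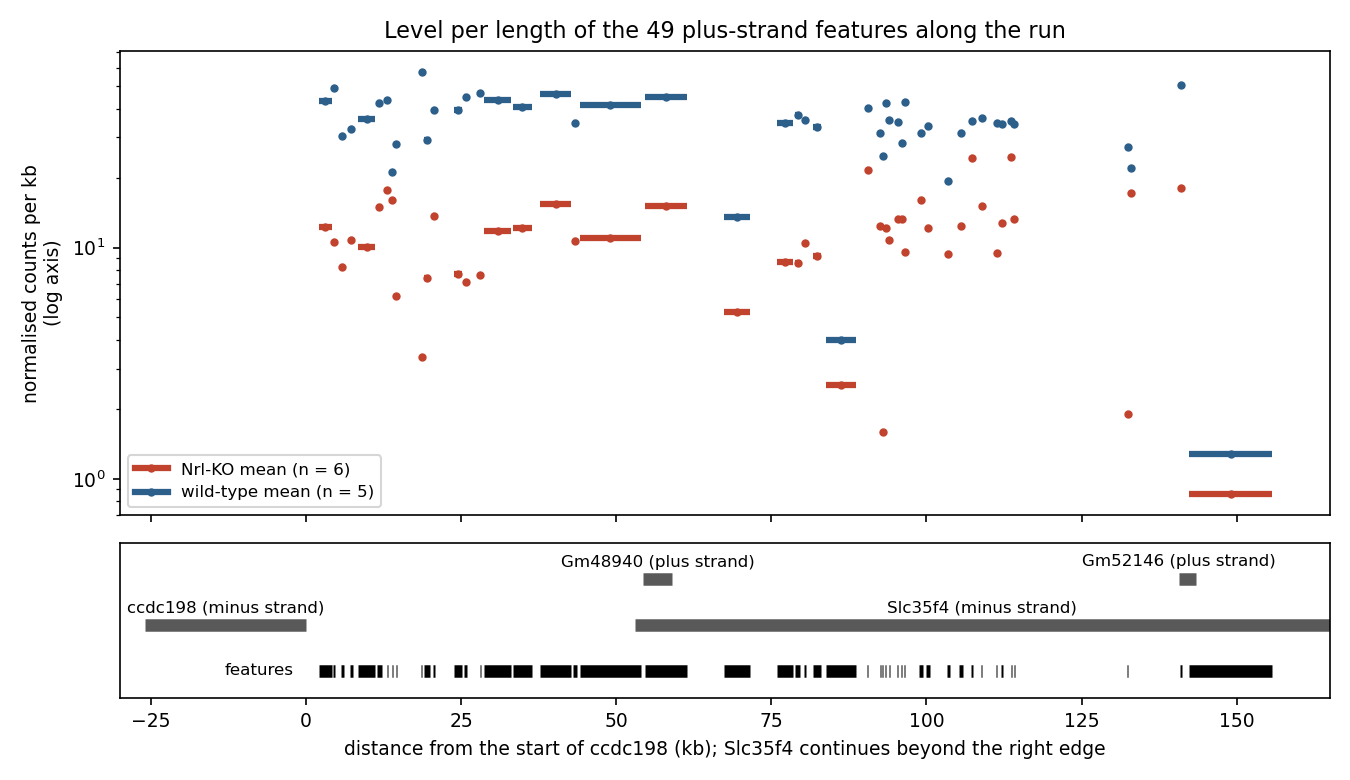
Mean normalised counts per kb (log axis) of the 49 plus-strand features in Nrl-KO (n = 6) and wild-type (n = 5), against distance from the start of ccdc198 in kb; each bar spans its feature, and genes are drawn under the axis. Wild-type means sit above Nrl-KO means in all 49 features, and MSTRG.28036, MSTRG.28041 and MSTRG.28064 lie lowest in wild-type.

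Summed over the 49 members, the run had a lower level in Nrl-KO than in wild-type retina. The sum was 437 to 970 normalised counts in Nrl-KO, with a median of 664, against 1450, 1871, 2378, 2327 and 2772 in wild-type replicates 1 to 5. The highest knockout library thus lay below the lowest wild-type library. The means were 667 ± 189 in Nrl-KO (SD, n = 6) and 2159 ± 509 in wild-type (SD, n = 5), so the knockout mean was 30.9% of the wild-type mean and the log2 ratio was -1.69. Whole reads were relied on in 9 libraries, without Nrl-KO replicate 2 and wild-type replicate 5, which held the lowest knockout and highest wild-type sums. In those 9 the sums rest on 502 to 1279 reads per knockout library and 1057 to 2562 reads per wild-type library. In bulk tissue, fewer cells of a type and less RNA per cell cannot be told apart.

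Rod markers moved with the run. Features overlapping 13 of 15 rod marker genes summed to 359 to 568 normalised counts in Nrl-KO and 3046 to 5143 in wild-type, with 27 of 38 tested features lower, 4 higher and no feature at Nr2e3 or Gngt1. Features at 9 of 12 cone genes summed to 1269 to 1967 in Nrl-KO and 372 to 414 in wild-type, with 17 of 26 tested features higher and 2 lower. Their part in the values of the run was not tested. Features at 6 of 8 bipolar genes held 5 called higher and 1 lower of 16 tested. Features at 3 of 7 Müller glia genes summed to 17.6 to 34.3 in Nrl-KO and 29.3 to 55.5 in wild-type. Of 2 tested there, 1 was lower. Those at 1 of 4 pigment epithelium genes summed to 72.8 to 185 in Nrl-KO and 141 to 256 in wild-type. Of 10 tested there, 1 was lower and 0 higher. Among 5 microglia genes, 1 had a feature, which was too sparse to test. The table lists features the authors class as non-coding, so these sums are not levels of the marker mRNAs. The feature opposite Nrl itself, MSTRG.28375, was at 0 in 5 of 6 knockout libraries and at 0.758 in the other, against 33.3 to 55.5 in wild-type.

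**Figure D2:**
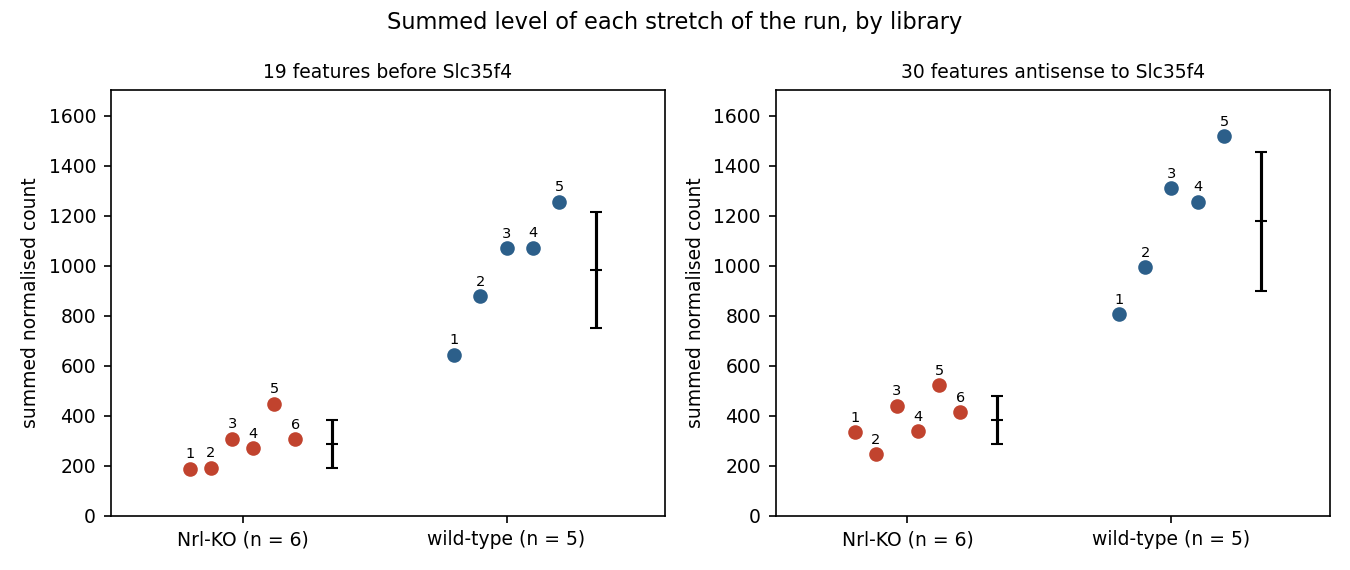
Summed normalised counts per library of the 19 features before Slc35f4 (left panel) and the 30 features antisense to Slc35f4 (right panel), with Nrl-KO left of wild-type; digits are replicate numbers and bars show mean ± SD. Every knockout library lies below every wild-type library in both panels.

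Both stretches of the run had lower sums in Nrl-KO. Before Slc35f4 the sum was 285 ± 95.7 in Nrl-KO (SD, n = 6) and 983 ± 233 in wild-type (SD, n = 5), which is 29.0% of the wild-type mean. Opposite Slc35f4 it was 382 ± 96.5 in Nrl-KO and 1176 ± 278 in wild-type, which is 32.5%. That sum holds MSTRG.28032, of which 894 bp overlap Slc35f4, and the other 29 antisense members summed to 273 ± 66.5 in Nrl-KO and 768 ± 160.3 in wild-type, or 35.6%. Among tested members, the median knockout mean was 28.3% of wild-type before Slc35f4 and 37.5% opposite it. Within each library, the stretch before Slc35f4 supplied 36.1% to 46.2% of the run's counts in Nrl-KO and 44.4% to 46.9% in wild-type. The ranges overlap, and Nrl-KO replicate 1 gave the lowest share.

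The abundant features nearest the start of ccdc198 are MSTRG.28012, the first of the run, and MSTRG.28016, both intergenic. Between them lie 3 shorter members, MSTRG.28013, MSTRG.28014 and MSTRG.28015. MSTRG.28012 (49247512 to 49249631, 2120 bp) had 16.6 to 44.0 normalised counts in Nrl-KO, median 23.8, against 65.8, 71.5, 103, 107 and 110.0 in wild-type. MSTRG.28016 (49253927 to 49256649, 2723 bp) had 17.2 to 46.3 in Nrl-KO, median 26.8, against 76.8, 76.2, 102, 112 and 122 in wild-type. In neither did the groups overlap, and wild-type replicates 1 and 2 were the lower libraries of their group. The fitted log2 differences were -1.82 (SE 0.24) and -1.84 (SE 0.24) on the log2(normalised count + 1) scale.

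Further along the intergenic stretch lay 3 longer features. MSTRG.28028 (49274224 to 49278503, 4280 bp) had 30.3 to 76.6 normalised counts in Nrl-KO, median 53.2, against 145, 177, 203, 194 and 213 in wild-type. MSTRG.28029 (49278783 to 49281943, 3161 bp) had 20.8 to 60.7 in Nrl-KO, median 36.8, against 71.3, 107, 149, 139 and 178 in wild-type. MSTRG.28030 (49283233 to 49288275, 5043 bp) had 48.5 to 124 in Nrl-KO, median 77.8, against 143, 206, 257, 249 and 314 in wild-type. All 3 kept every knockout library below every wild-type library. Their log2 differences were -1.91 (SE 0.22), -1.74 (SE 0.26) and -1.59 (SE 0.23).

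The most abundant members sat around the 3′ end of Slc35f4, on the strand opposite to it. Most of MSTRG.28032 lies before Slc35f4, but it overlaps the gene and is counted in the antisense stretch. MSTRG.28032 (49289590 to 49299412, 9823 bp) overlaps the 3′ end of Slc35f4 by 894 bp, of which 755 bp lie opposite exons (7.69% of the member). It had 69.7 to 156 normalised counts in Nrl-KO, median 113, against 239, 330.3, 479, 464 and 531 in wild-type. MSTRG.28035 (49300070 to 49306842, 6773 bp), which holds the printed Gm48940 exon, had 67.6 to 154 in Nrl-KO, median 93.9, against 199, 281, 317, 348 and 382 in wild-type. The groups stood apart in both, with wild-type replicate 1 nearest to the knockout libraries. Their log2 differences were -1.90 (SE 0.23) and -1.58 (SE 0.21). Because 17.4% of MSTRG.28035 lies opposite Slc35f4 exons and strand use in the authors' counting was not stated in the labels or headers, reads of that gene's own RNA cannot be told apart from it with certainty. The same holds for MSTRG.28036, of which 28.1% lies opposite Slc35f4 exons, the largest share of the 4 members that touch one. Intronic members have no exon opposite them, but unspliced Slc35f4 RNA would cover them too.

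Deeper in Slc35f4, MSTRG.28037 (49321318 to 49323899, 2582 bp, 7.20% opposite exons) had 4.04 to 34.9 normalised counts in Nrl-KO, median 23.3, against 60.3, 73.4, 101, 88.0 and 125 in wild-type. Nrl-KO replicate 2 held the low value of 4.04. The log2 difference was -2.14 (SE 0.36), and without that library it was -1.74. Together the 8 most abundant members supplied 68.2% of the run's counts in Nrl-KO and 71.4% in wild-type.

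**Figure D3:**
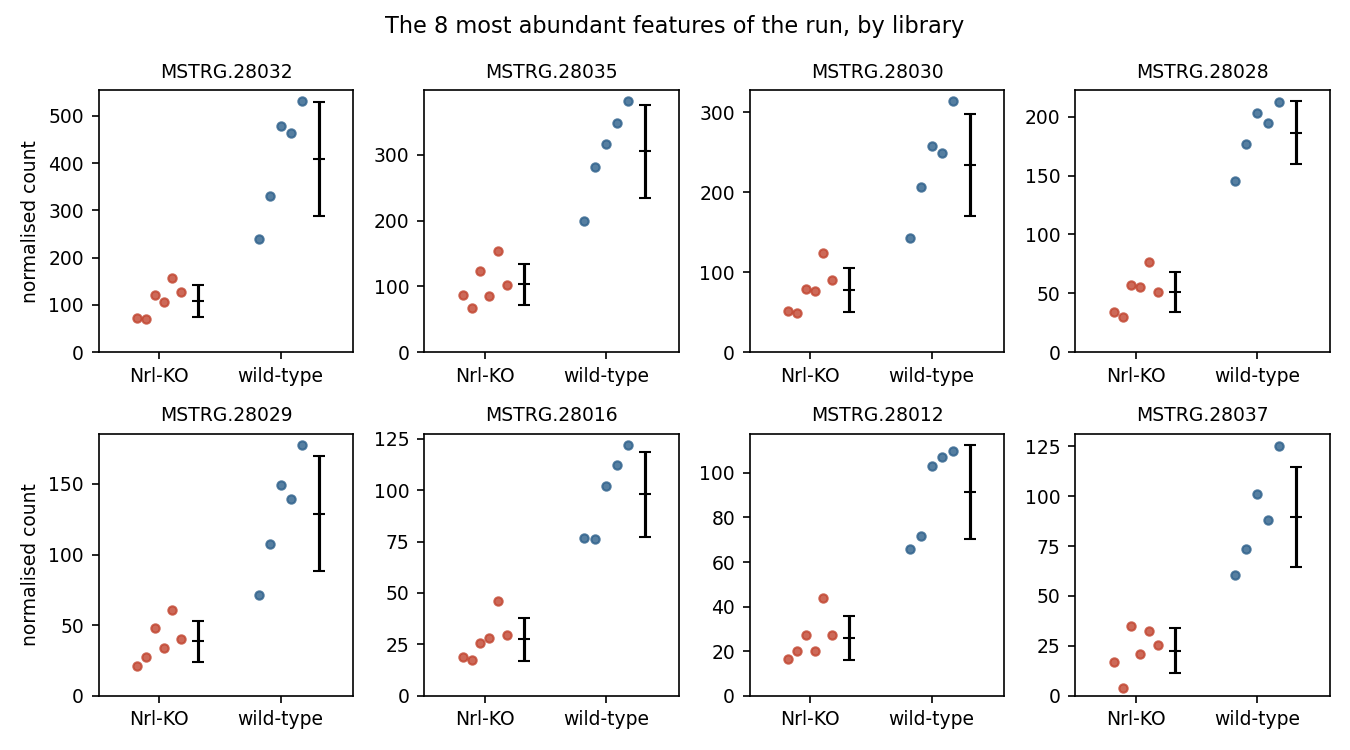
Normalised counts in each library for the 8 members with the highest mean over all libraries, Nrl-KO (n = 6) left of wild-type (n = 5); points are libraries and bars are mean ± SD. The groups do not overlap in any of the 8, whose knockout means are 25% to 33.7% of the wild-type means.

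The other 41 members were shorter or sparser. Of these, 26 passed the limit of a mean of at least 5, with means of 2.42 to 21.6 normalised counts in Nrl-KO and 7.30 to 55.8 in wild-type. The remaining 15 were 107 to 195 bp long, with means of 0.277 to 4.13 in Nrl-KO and 2.38 to 8.13 in wild-type. At least 1 knockout library stood at 0 in 13 of these 15, and at least 1 wild-type library in 5 of them. The limit that a listed 0 leaves, 3 reads, was worth 2.28 to 3.12 normalised counts in knockout libraries and 2.78 to 4.11 in wild-type libraries, so most of the 15 could not be resolved in Nrl-KO at this depth. The lowest ratio among them was at MSTRG.28022 (116 bp), with 0.391 ± 0.644 in Nrl-KO (SD, n = 6) and 6.69 ± 2.84 in wild-type (SD, n = 5).

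Per length, the wild-type level differed between members, from 1.28 to 57.7 normalised counts per kb. Listed features have a lowest mean, so a short member needs a higher level per kb to be listed than a long one. Levels per kb of short and long members are therefore not fully comparable. The 3 members with the lowest wild-type level per kb, singled out after their values were seen, were MSTRG.28036, MSTRG.28041 and MSTRG.28064, with 5.26, 2.54 and 0.857 normalised counts per kb in Nrl-KO. In wild-type the same features had 13.5, 3.97 and 1.28 per kb. Among the other 46, levels ran from 1.59 to 24.6 per kb in Nrl-KO with a median of 12, and from 19.4 to 57.7 per kb in wild-type with a median of 35.6. MSTRG.28012 near ccdc198 and MSTRG.28035 inside Slc35f4 had 12.2 and 15.2 per kb in Nrl-KO, against 43.2 and 45.1 per kb in wild-type.

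Counts across the members read as follows, beside the same counts over all features where these were computed. The mean was lower in Nrl-KO than in wild-type in all 49 members, and in 41 of them it was under 50% of the wild-type mean. For neither count was the share over all features computed. limma with Benjamini-Hochberg adjustment called 30 of the 34 tested members lower and 0 higher at an adjusted p below 0.05, where 12.6% of all 21395 tested features were called lower and 15.6% higher. With no limit on the mean it called 37 of the 49 lower, where 9.12% of all features were, and with a mean of at least 20 it called 12 of 12, where 19.7% were. On whole reads of 9 libraries edgeR called 27 lower, where 11.8% of all tested features were, and DESeq2 26, where 11.7% were. Every knockout value lay below every wild-type value in 18 of the 34, against 9.13% of all tested features. The median log2 difference was -1.51 over the 34 and -0.02 over all tested features. Since the window was chosen on this contrast, and since the limit on the mean favours members high in wild-type, nothing is read from these counts. In the authors' deposited table, 33 of the 49 members have an adjusted p below 0.05 with a lower level in Nrl-KO, where 8.48% of all features do.

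The 4 tested members that limma did not call all lie inside Slc35f4. MSTRG.28041 had 9.60 to 18.7 normalised counts in Nrl-KO, median 11.6, against 20.6, 15.1, 16.7, 16.4 and 29.3 in wild-type. MSTRG.28064, the longest member and the one that crosses the window's edge, had 6.07 to 17.7 in Nrl-KO, median 11.8, against 27.4, 5.65, 14.8, 21.3 and 16.1 in wild-type. The groups overlapped in both, and in MSTRG.28064 wild-type replicate 2 lay below every knockout library. MSTRG.28052 averaged 3.53 ± 2.39 in Nrl-KO (SD, n = 6) and 7.30 ± 4.57 in wild-type (SD, n = 5). MSTRG.28054 averaged 9.80 ± 4.95 in Nrl-KO and 14.1 ± 4.01 in wild-type. Their log2 differences were -0.60, -0.45, -0.64 and -0.64, in the order named.

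**Figure D4:**
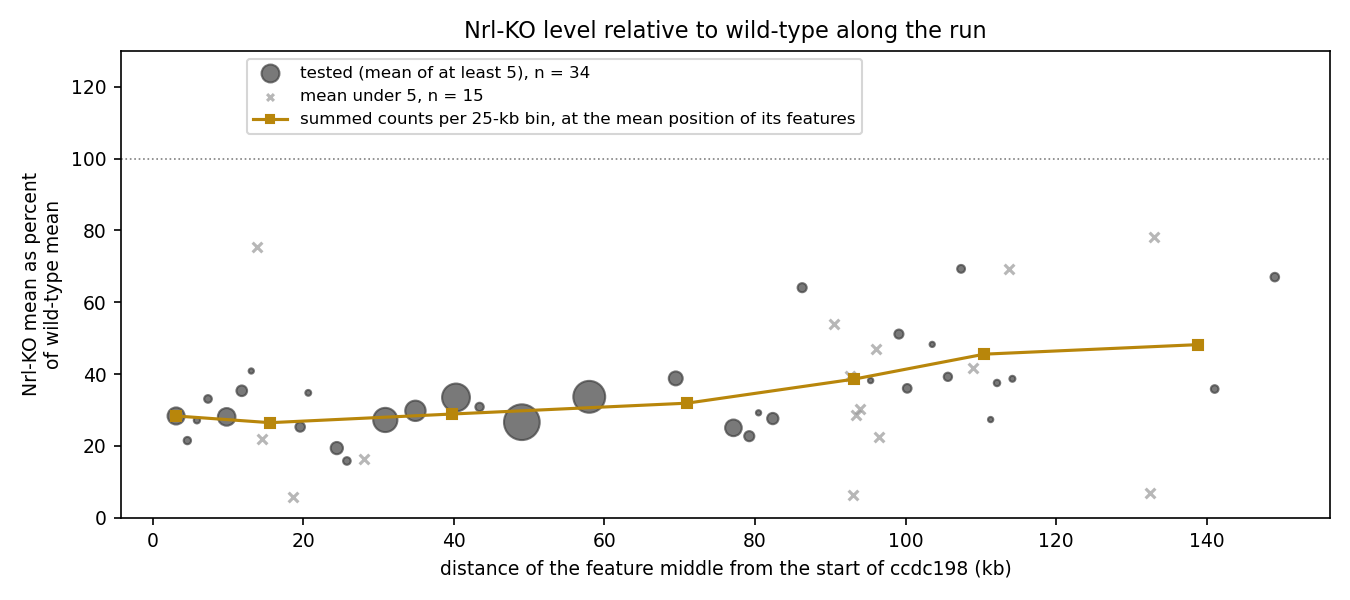
Nrl-KO mean as a percent of the wild-type mean for each of the 49 members against the distance of its middle from the start of ccdc198 in kb, with circle area growing with mean level; crosses are the 15 members with a mean under 5, and squares join the summed counts of 25-kb bins. The squares lie between 26.5% and 31.9% in the first 4 bins and between 38.6% and 48.2% in the last 3.

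Relative to wild-type, the knockout level was lower in the part of the run toward ccdc198 than deep inside Slc35f4. In bins of 25 kb, numbered from the ccdc198 side, the summed knockout mean was 28.3%, 26.5%, 28.9% and 31.9% of the wild-type mean in the first 4 bins and 38.6%, 45.6% and 48.2% in the last 3. The first of these bins holds only MSTRG.28012. The last holds 4 members whose sum was 19.8 ± 6.83 in Nrl-KO (SD, n = 6) and 41.1 ± 19.8 in wild-type (SD, n = 5). Leaving out 1 library at a time gave 41.2% to 57.9% in the last bin and 23.3% to 28.7% in the second. Counts fell away along the run, from 283 ± 91.6 in Nrl-KO and 979 ± 256 in wild-type in the bin around the 3′ end of Slc35f4 to those of the last, so the later percentages rest on few reads. The order of the bins was seen first and has no test.

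Libraries of a group kept similar ranks from member to member. Among the 34 tested members, Nrl-KO replicate 5 was the highest knockout library in 14 and Nrl-KO replicate 2 the lowest in 15, where 18.6% and 19% of all tested features have them in those places. Wild-type replicate 5 was the highest wild-type library in 21 of the 34 and wild-type replicate 1 the lowest in 21, where 20.8% and 27.2% of all tested features do. Members are neighbours on 1 strand of the same libraries, so these ranks are not independent. The coefficient of variation of the run's sum was 28.3% in Nrl-KO and 23.6% in wild-type. In the 9 libraries whose whole reads were relied on, reads in listed features numbered 3374221 to 4363201 in Nrl-KO and 3238184 to 4150460 in wild-type, lowest in wild-type replicate 1.

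The profiles nearest to that of the lead member, MSTRG.28032, were those of other members of the run. For MSTRG.28032, likeness was the root mean square difference between log2(normalised count + 1) profiles over the 11 libraries, each centred on its own mean. MSTRG.28029, MSTRG.28030 and MSTRG.28016 came nearest, at 0.16, 0.18 and 0.18. Of the 33 other tested members, 8 were nearer than any of the 21361 tested features elsewhere. The nearest of those elsewhere was MSTRG.85649 (chromosome 8, 34661064 to 34665643, minus strand), at 0.28, with 68.9 ± 19.2 normalised counts in Nrl-KO (SD, n = 6) and 273 ± 32.4 in wild-type (SD, n = 5). Next were MSTRG.63251 (chromosome 4, 116025326 to 116027175) and MSTRG.5054 (chromosome 1, 142968417 to 142977146), both at 0.29, and none of the 3 overlaps an annotated gene. A profile here is mainly the level of 2 groups, so features with a like difference score alike. The 3 nearest are also among the 8 most abundant members. Since the window was picked on this contrast, nothing is read from the nearness of its members.

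Gaps without listed features lay on both sides of the run, and how common gaps of that size are was not computed. The nearest listed feature before it, MSTRG.28007 on the plus strand, lies 133735 bp away and had 2.59 ± 2.28 normalised counts in Nrl-KO (SD, n = 6) and 5.38 ± 2.83 in wild-type (SD, n = 5). The nearest after it, MSTRG.28065, also plus strand and inside Slc35f4, lies 115181 bp away and had 3.62 ± 2.45 in Nrl-KO and 5.41 ± 5.02 in wild-type. Neither passed the limit on the mean, and their values overlap between groups. The next feature before, MSTRG.28002, lies 246571 bp away on the minus strand. It had 0.727 ± 0.608 in Nrl-KO and 5.96 ± 2.69 in wild-type, without overlap. The next after, MSTRG.28068, lies 266770 bp away on the minus strand. It went the other way, with 6.34 ± 3.25 in Nrl-KO and 2.42 ± 1.98 in wild-type, and the groups overlap. Both were too sparse to test. The table lists 0 features on the strand of Slc35f4 over its body and 0 over ccdc198. It lists only features the authors class as non-coding, so these zeros do not show that either gene was silent. On a grid of 200-kb bins, 9148 bins of 1 strand hold a feature, with a median of 2 features, and 27 of them hold at least 49. At least 30 features called lower were seen in 1 bin, this one. Since the window was picked on this contrast, nothing is read from that place. Of the 694 bins with at least 10 features, 41 had every mean lower in Nrl-KO, this one included.

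The authors place all 49 members in 1 chromosomal domain, whose column name marks it as a topologically associating domain, a stretch of chromosome that folds mostly onto itself. The authors' deposited table lists 1 mRNA as lower in that domain, 1700011H14Rik, which is ccdc198, and 0 as higher. Slc35f4 is in neither list in any domain. The domain holds 6 further features, of which 5 are on the minus strand, and 4 of these 5 had a higher mean in Nrl-KO. Of the 6, 4 were tested and 0 were called by limma, edgeR or DESeq2 after adjustment. In limma, 1 had an unadjusted p below 0.05. Over all tested features limma called 28.1%, so 0 calls among 4 tells little. The share of all features with a higher mean in Nrl-KO was not computed. The labels and headers do not say how the authors made the mRNA lists.

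The run lies 6.28 Mb from the start of Nrl, the gene altered in the knockout mice. Within 10 Mb of that start, 118 of 236 tested features were called, and without the run's own members 88 of 202 (43.6%), against 28.1% of all tested features. Of those 88, 38 were lower and 50 higher in Nrl-KO. Whether that distance bears on the run was not tested. Of the Slc35f family, the deposited features covered Slc35f4 and Slc35f1 alone. Slc35f4 had 31 features opposite to it, namely the 30 members and MSTRG.28065, and Slc35f1 had 2 that were too sparse to test. There were 0 features over Slc35f2, Slc35f3, Slc35f5 and Slc35f6.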

How the data were processed

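The deposited signal values are read counts per feature that the authors divided by DESeq2 size factors, on mm10 by the table's own title. Among the tools, Cuffdiff, Cufflinks 2.2.1 and TopHat2 2.0.10 appear in the submitters' processing notes, beside mm9 and mm10, without roles. No label or header states the counting tool or its use of strand. The deposited log2 fold changes and adjusted p-values are the authors' own and were used for 1 count. The deposited score was not used. Of 36180 lines, 36097 unique features were kept. Table starts count from 0, since 142 of 153 Ensembl-named features match GENCODE M21 after adding 1, so 1 was added. Gene positions are from GENCODE M21 and, for Gm52146, RefSeq on GRCm38.p6.

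In all 11 libraries, values were whole multiples of what 1 read is worth (100% within 0.001). In the 9 libraries used for count tests, this gave 3374221 to 4363201 reads per Nrl-KO library and 3238184 to 4150460 per wild-type library in listed features. Floors and sums cover counting error only.

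limma 3.58.1 in R 4.3.3 (eBayes with trend and robust) was fitted across the 21395 features with a mean of at least 5 on log2(normalised count + 1), group as the only term, two-sided, with Benjamini-Hochberg adjustment and a threshold of 0.05. The scale understates changes of low features. As count tests, DESeq2 1.42.0 and edgeR 4.0.16 took whole reads from 9 libraries, without Nrl-KO replicate 2 and wild-type replicate 5, whose steps of 1.01 normalised counts per read lie so close to 1 that the recovery was not relied on.

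The members and lists were chosen with earlier results of these data known. Values by library were given for the 8 members of highest mean and for MSTRG.28041 and MSTRG.28064, which limma did not call. MSTRG.28052 and MSTRG.28054, also not called, were given as mean and SD. The members not called were added after their values were seen. Motifs were searched in promoter windows and not at feature starts, since no genome was used here. The promoter of Slc35f4 was not printed because most of it lies in an annotated exon.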

Additional observations from a re-analysis of the deposited data

How the results depend on the processing

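The 8 most abundant members kept their direction and stayed called lower under each of the 21 alternatives tried for each, with log2 differences of -2.31 to -1.31. Over all features, leaving out 1 library at a time gave 5481 to 6241 calls against 6022, and 26 to 31 members called lower against 30; members called higher stayed at 0 under each alternative. Requiring a mean of at least 20 gave 3350 calls over all features and 12 members called lower, with 12 members tested and 19.7% of all features called lower. With no limit on the mean, 37 of 49 members were called lower, and 9.12% of all features. edgeR called 27 and DESeq2 26 members lower (11.8% and 11.7% of all features), all among the 30, as were 27 (11.9%) by limma on the same 9 libraries, an alternative chosen after seeing the data. The log2 ratio of the run's sums was -1.83 to -1.59 without 1 library, and -1.71 to -1.69 under other scalings or without the member that crosses the window's edge.

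Replicate numbers are shared by the groups. Over all tested features, same-numbered libraries deviated together with correlations of 0.00 to 0.29, and the numbers were not taken as pairs. In the run, the sums of Nrl-KO replicates 1 to 5 were 522, 437, 746, 609 and 970. Those of wild-type replicates 1 to 5 had a similar order, with 1450, 1871, 2378, 2327 and 2772. With the replicate block, for numbers 1 to 5, 6932 features and 30 members were called. On the same libraries without the block, 5720 features and 30 members were called lower or higher. The SE of MSTRG.28032 was 0.14 with the block and 0.24 without it. Whether a shared batch or pairing lies behind these values was not tested. By the correlations over all tested features, wild-type replicate 5 was the only wild-type library nearest to its own number. The minus-strand sum was not run, since no member lies on that strand. Depth limits the 15 members with a mean under 5.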
